A study of Mus musculus with 4 samples.

Results

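The BMP and GDF ligands are secreted growth factors of the TGF-beta superfamily, and 10 gene symbols of the BMP and GDF series were followed here, 1 of which, Bmp1, names a protease and no ligand of that superfamily. They were Bmp1, Bmp2, Bmp4, Bmp5, Bmp6, Bmp7, Bmp8b, Gdf3, Gdf6 and Gdf9. All probe sets that carry exactly one of these symbols in the platform annotation were taken. This gave 17 probe sets for 9 genes, out of 45037 probe sets other than controls and 18193 genes named on their own by a probe set. No probe set was found under the symbol Gdf6, a ligand known for its part in joint and eye development, so it was not analysed here. The rule goes by symbol and uses no signal, but the symbols were picked with earlier results of these arrays known.

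The study measured transcript levels in E14Tg2A.4 cells, a subline of the mouse embryonic stem cell line E14Tg2a, on 4 one-colour Affymetrix arrays. The cells of 2 arrays had received BMP-2 protein at 25 ng/ml for 1 h, and those of the other 2 arrays had been left without it for the same time. The labels give no genotype beyond the name of the line, which all 4 samples share, and do not say whether replicates were separate cultures, so the errors below may measure technical spread only. The comparison asked whether added BMP-2 changed the transcripts of the ligands that the cells make themselves.

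BMP ligands are made as precursors that are cut by proprotein convertases and act as disulphide-linked dimers. They bind pairs of type I and type II serine/threonine kinase receptors, which phosphorylate SMAD1, SMAD5 and SMAD9, and extracellular antagonists such as noggin and chordin keep them from the receptors. In mouse embryonic stem cells BMP signalling together with LIF is known to sustain self-renewal, in part through the Id genes. The added BMP-2 was protein, so it brings no transcript of its own to the arrays.

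Transcripts of Gdf3 and Bmp4 gave the brightest signals of the family, and Gdf9, Bmp7 and Bmp8b were measured at lower signals. Bmp1, Bmp2, Bmp5 and Bmp6 were too dim to be tested. Bmp4 signal was lower with BMP-2 on both arrays, at 862 ± 42.8 against 1116 ± 35.5 without it (SD, n = 2 each), or 0.77 times the untreated level, but it did not pass the test. No probe set of the family passed. A probe set was tested when its log2 signal, averaged over the 4 arrays, exceeded the 40th percentile of all probe sets, which is a signal of 53.0. Below, a dim probe set is one under this limit. Of the 17 probe sets 6 were tested, which represent Gdf3 (by 2), Bmp4, Gdf9, Bmp7 and Bmp8b. Since the limit was set on the mean of all arrays, the 6 are the bright probe sets and do not stand for the whole family.

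**Figure D1:**
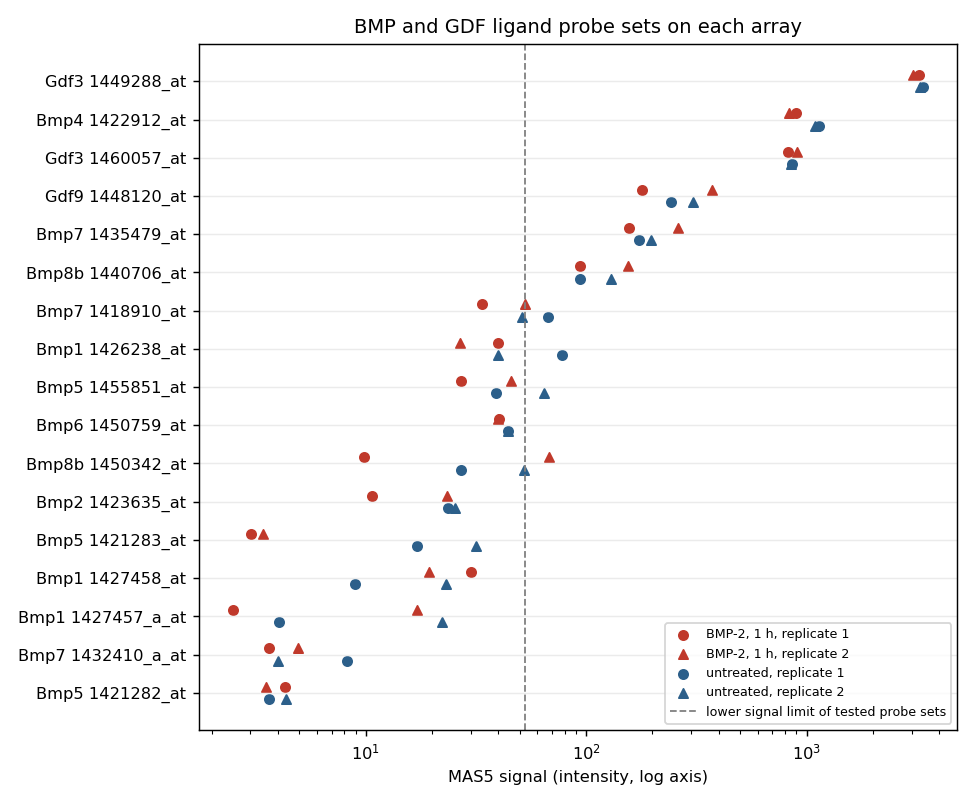
MAS5 signal (horizontal, log axis) of each of the 17 probe sets of the family on each array, 3 of them of the protease Bmp1. BMP-2 is in red above untreated in blue, with circles for replicate 1 and triangles for replicate 2. Probe sets are sorted by mean log2 signal of the untreated arrays, and the dashed line is the signal of 53.0 above which probe sets were tested. The 2 BMP-2 arrays lie left of both untreated arrays for Bmp4 and for the brighter Gdf3 probe set.

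The order of the untreated signals was Gdf3, Bmp4, Gdf3 by its second probe set, Gdf9, Bmp7 and Bmp8b among the tested probe sets. The untreated signals of neighbours in this order did not overlap down to and including the step from Bmp8b to the next, dim, probe set of Bmp7. These signals stood at the 94.5th, 86.3rd, 83.6th, 69.6th, 64.1st and 55.1st percentile of the untreated means of all probe sets. From the dim Bmp7 probe set downwards each probe set overlapped the next one, with the exception of the step from the dim Bmp8b probe set to that of Bmp2. Brightness depends on the probes as well as on the transcript, so the order is one of signals and not of transcript numbers. Probe sets of one gene show how far this goes: mean untreated signals differed 30.5-fold among the 3 probe sets of Bmp7, 12.9-fold among the 3 of Bmp5, 4.50-fold among the 3 of Bmp1, 3.89-fold between the 2 of Gdf3 and 2.83-fold between the 2 of Bmp8b.

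Gdf3, which lies next to Dppa3 in the order of genes on chromosome 6, is a marker of pluripotent cells whose product can act as a Nodal-like ligand and can inhibit BMPs. Its brighter probe set, 1449288_at, read 3225 and 3047 with BMP-2 and 3372 and 3282 without. The BMP-2 signals lay below both untreated ones, and the log2 difference was -0.09 ± 0.08 (SE), with a 95% interval of -0.27 to 0.10. The second probe set, 1460057_at, read 827 and 906 with BMP-2 and 858 and 854 without. Here the groups overlapped, and the difference was 0.02 log2 with an interval of -0.24 to 0.27. The 2 probe sets of Gdf3 thus differed in sign, and each interval held 0. The intervals ran from 0.83 to 1.07 times the untreated level on the brighter probe set and from 0.85 to 1.21 times on the second, which lay at -0.05 log2 without BMP-2 replicate 2.

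Bmp4, the ligand closest to BMP-2 in the family and a mesoderm and germ cell inducing factor of the early embryo, was measured by 1 probe set, 1422912_at. It read 892 and 832 with BMP-2 and 1141 and 1091 without. Both treated signals were below both untreated ones. The arrays of a group differed by 0.10 log2 with BMP-2 and by 0.06 log2 without, taken as sizes. The fitted difference was -0.37 ± 0.11 log2 (SE), a level of 0.77 times untreated with a 95% interval of 0.65 to 0.91. By limma with Benjamini-Hochberg adjustment over all 27022 tested probe sets the adjusted p was 1.00, and 108 probe sets had a smaller p-value. The interval is that of a single probe set and makes no allowance for the number tested. Under the 13 other settings tried, Bmp4 was lower with BMP-2 in each, by 0.32 to 0.42 log2. Changing the filter, dropping the trend, adding the block or averaging its 1 probe set cannot alter this estimate. Because the groups did not overlap, leaving out an array cannot turn its sign. The shared sign is therefore largely fixed in advance. Its lowest limma adjusted p, with the replicate number as a block, was 0.674.

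The promoter of Bmp4 is shown because Bmp4 is the tested ligand whose 95% interval did not hold 0. The RefSeq-based table for GRCm38.p6 holds 4 of the 10 members, Bmp4, Bmp5, Bmp6 and Bmp8b. The window runs from 250 bases before to 50 bases after the start of the gene, at chr14:46390620-46390919 on the minus strand, and capitals mark GTCT or its reverse complement AGAC, the short SMAD-binding element.

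Bmp4: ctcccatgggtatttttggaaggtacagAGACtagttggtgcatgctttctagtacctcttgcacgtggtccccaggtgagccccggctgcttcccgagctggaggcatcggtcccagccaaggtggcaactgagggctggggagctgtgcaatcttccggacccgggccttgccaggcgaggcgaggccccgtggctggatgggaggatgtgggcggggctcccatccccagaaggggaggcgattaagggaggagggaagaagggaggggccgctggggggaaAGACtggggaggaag

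The element was found at 2 places, with first bases at positions 29 and 286 counted from the 5′ end. It is held by 88.0% of the 32851 windows of this length in the table, on either strand. The longer form CAGACA (reverse complement TGTCTG, which contains the short element) is held by 21.0% of windows. It was found once each in the windows of Bmp5 and Bmp8b, and not in those of Bmp4 and Bmp6. The GC-rich element GGCGCC, which reads the same on both strands and is known to be bound by SMAD1 and SMAD5, is held by 11.9% and was in none of the 4 ligand windows. The matches are letters in a window and do not show binding.

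Gdf9, an oocyte growth factor, lies next to Uqcrq in the order of genes on chromosome 11. Its probe set, 1448120_at, read 179 and 372 with BMP-2 and 242 and 304 without. The untreated signals lay between the treated ones, and the difference was -0.07 ± 0.30 log2 (SE). The BMP-2 arrays differed from each other by 1.05 log2, where the median size of this spread over all tested probe sets was 0.16 log2. The interval ran from 0.60 to 1.51 times the untreated level, so it held no change as well as lower and higher levels within these bounds. It is no limit of detection and makes no allowance for the number tested. Without BMP-2 replicate 1 the difference was 0.46 log2, and without BMP-2 replicate 2 it was -0.60 log2.

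Bmp7, a ligand with known roles in kidney and eye development, read 157 and 261 with BMP-2 and 174 and 198 without on its tested probe set, 1435479_at. The groups overlapped, with a difference of 0.12 ± 0.25 log2 (SE). Bmp8b, a ligand known from the formation of germ cells and from brown fat, read on its probe set 1440706_at 93.8 and 154 with BMP-2 and 93.5 and 130 without. The difference was 0.12 ± 0.31 log2, and these groups overlapped too. Bmp8b and its close relative Bmp8a are similar in sequence, so their signals may not be fully separate. The intervals of both reached from 0.74 to 1.61 times the untreated level for Bmp7 and from 0.67 to 1.77 times for Bmp8b. Both turned when BMP-2 replicate 2 was left out, to -0.24 log2 each, and Bmp8b also without untreated replicate 1, to -0.12 log2.

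**Figure D2:**
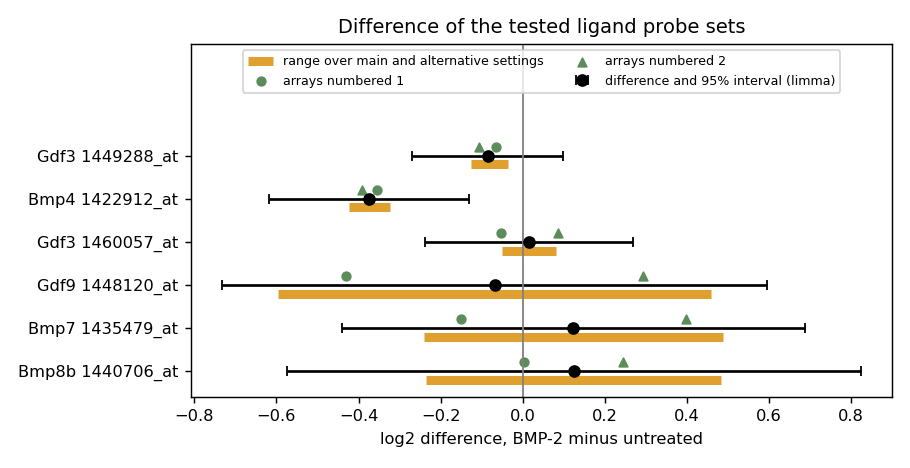
Log2 difference of BMP-2 minus untreated (horizontal) for the 6 tested ligand probe sets, with black points and bars for the limma estimate and its 95% interval, orange bars for the range over the main and all alternative settings (the average of both Gdf3 probe sets is counted with the brighter one), and green circles and triangles for the arrays numbered 1 and 2. The interval of Bmp4 lies below 0, and those of the other 5 hold 0.

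By limma, 0 of the 6 probe sets passed an adjusted p of 0.05, and 1 of them, that of Bmp4, had an unadjusted p under 0.05. Over all 27022 tested probe sets 5 passed, or 0.0185%, all of them higher, and 3.07% had an unadjusted p under 0.05, 1.15% being lower. Centring each array on its median over all probe sets gave 116 instead, 72 higher and 44 lower, and centring on the median of the tested probe sets gave 17, 12 higher and 5 lower. The family had none past the threshold in any of the 13 alternatives. The groups did not overlap for 2 of the 6 ligand probe sets, both lower, against 28.4% of all tested probe sets, 12.5% being lower. The counts of the family are too small to be set apart from these shares. Of the 6, 3 were higher and 3 lower, with a median of -0.03 log2. Over all tested probe sets 52.2% were higher and 47.8% lower, with a median of 0.01 log2. When arrays were centred on the median of the tested probe sets, 2 were higher and 4 lower, because the second Gdf3 probe set changed sign.

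The 11 dim probe sets are given as signals, with no fold. Bmp2, the gene of the ligand that was added, had 1 probe set, at 10.7 and 23.4 with BMP-2 and 23.6 and 25.5 without. All 4 signals were below the limit, at the 24.5th percentile of all probe sets for the untreated mean. The treated signals were below both untreated ones, one of them by little. Bmp6, a ligand that in the liver induces the iron hormone hepcidin, read 40.4 and 39.6 with BMP-2 and 44.0 and 44.4 without. On the log2 scale these 4 signals lay closest together of the dim probe sets, and the treated ones were the lower.

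Bmp5, a ligand of skeletal development, had 3 probe sets, all dim. One read 27.1 and 45.7 with BMP-2 and 39.1 and 64.5 without. Another read 3.02 and 3.44 with BMP-2 and 17.2 and 31.6 without. In this one the treated arrays lay well below the untreated ones, but all 4 signals were far under the limit, and in the fit without a filter its limma adjusted p was 1.00. The last read 4.31 and 3.53 with BMP-2 and 3.64 and 4.36 without, with overlap.

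Bmp1 differs from the rest of the family, since it encodes an astacin metalloprotease that cuts procollagens and the BMP antagonist chordin. Its brightest probe set read 39.7 and 26.9 with BMP-2 and 77.8 and 39.96 without. The higher treated signal was just under the lower untreated one. The others were below 31 on each array and overlapped, at 29.97 and 19.3 with BMP-2 against 8.93 and 23.2 without, and at 2.50 and 17.1 with BMP-2 against 4.03 and 22.2 without.

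The dim probe sets of Bmp7 read 33.7 and 52.6 with BMP-2 against 67.2 and 51.3 without, and 3.65 and 4.94 with BMP-2 against 8.24 and 3.98 without. That of Bmp8b read 9.79 and 67.6 with BMP-2 against 27.1 and 52.0 without. All of these overlapped. The 11 dim probe sets include the 3 of the protease Bmp1. Of the 11, 10 had a lower mean log2 signal with BMP-2, where 55% of all 18015 dim probe sets did. The groups did not overlap for 4 of them (Bmp1, Bmp2, Bmp5 and Bmp6, 1 probe set each), all lower, against 30.9% of all dim probe sets, 17.9% being lower. The limit was set on the mean of all 4 arrays, so low BMP-2 signals help to make a probe set dim. Untreated log2 means were 5.88 for the brighter dim Bmp7 probe set and 5.80 for the brightest of Bmp1. These exceed the limit of 5.73 log2, so both were dim only through the BMP-2 arrays. Both are among the 10, and that of Bmp1 also among the 4, so these counts are partly set by the filter. Signals were below the limit on all 4 arrays for 7 of the 11, and the other 4 were above it on 1 array each. Probe sets of one gene share their transcript, so the 11 are not independent. Without a filter none of the 11 passed, where 0.00888% of all probe sets did.

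Signals were higher on replicate 2 than on replicate 1 in both groups for 3 of the 6 tested probe sets, those of Gdf9, Bmp7 and Bmp8b, where 36.8% of all tested probe sets were. The differences between replicate 2 and replicate 1 were 1.05 log2 with BMP-2 and 0.33 without for Gdf9, 0.73 and 0.18 for Bmp7, and 0.72 and 0.48 for Bmp8b. The bright probe sets of Bmp4 and Gdf3 differed by at most 0.13 log2 in either group, taken as sizes. Of the dim probe sets 5 of 11 were higher on replicate 2 in both groups, where 38.2% of all dim probe sets were. Both counts are near these shares and set nothing apart for the family. The median signal of all probe sets was 81.8 and 94.9 on the BMP-2 arrays and 82.4 and 94.6 on the untreated arrays, and so moved the same way. Between arrays of equal number, BMP-2 minus untreated, Bmp4 differed by -0.36 and -0.39 log2, which average to the fitted difference by construction. The same differences had opposite signs for Gdf9 (-0.43 and 0.29 log2) and Bmp7 (-0.15 and 0.40 log2), and those of Bmp8b were 0.0034 and 0.24 log2.

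**Figure D3:**
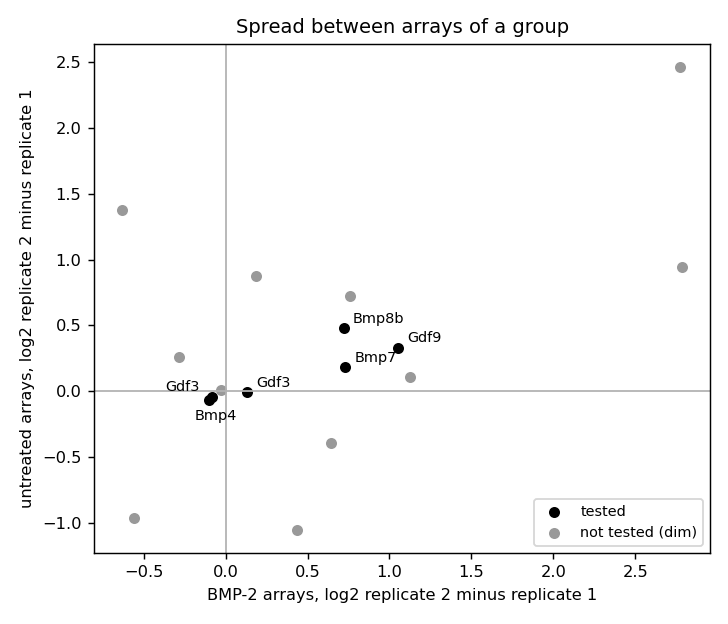
Log2 difference of replicate 2 minus replicate 1 on the BMP-2 arrays (horizontal) and on the untreated arrays (vertical). Points are the 17 probe sets of the family, 3 of them of the protease Bmp1, black where tested and grey where dim. Gdf9, Bmp7 and Bmp8b lie above 0 on both axes, and Bmp4 and Gdf3 lie near the origin, among the tested probe sets. The 2 dim Bmp7 probe sets lie below 0 on the vertical axis.

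Other genes of the pathway were taken from lists, each gene by its brightest tested probe set. Over 12976 genes taken this way, 0.0308% passed, 53% were higher, 47% were lower and the median was 0.01 log2. Early targets of BMP signalling were higher for 10 of 10 genes (median 0.79 log2), and 3 of them, Id1, Id2 and Id3, rose. These encode helix-loop-helix inhibitors of differentiation factors, and their differences were 1.65, 1.76 and 1.73 log2 (limma adjusted p = 2.0e-05, 3.6e-05 and 3.6e-05). They did not pass without the intensity trend of the fit. Skil, a SMAD co-repressor, read 6229 and 5978 with BMP-2 and 4830 and 4275 without (0.43 log2, not past the threshold).

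Among the 7 tested SMAD genes 6 were higher and 1 lower, and 0 passed (median 0.13 log2). Smad6 and Smad7, inhibitory SMADs that also stand on the list of early targets, differed by 1.27 and 0.66 log2 (limma adjusted p = 0.062 and 0.064). They passed in 8 and in 4 of the 13 alternatives, fits without 1 array among them. Averaging the probe sets of Smad7 lowered its difference to 0.41 log2 (adjusted p = 1.00). Smad1, which carries the BMP signal to the nucleus, differed by 0.38 log2.

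Ligands of the TGF-beta superfamily outside the 10 symbols, 11 genes tested, were higher for 6 and lower for 5, and 0 passed (median 0.04 log2). Lefty2, a Nodal antagonist, read 1349 and 1292 with BMP-2 and 1033 and 789 without. Nodal read 5030 and 4850 with BMP-2 and 5619 and 5614 without, and Bmp10, a ligand of the heart, differed by 0.38 log2 with overlap. Among 12 receptor and co-receptor genes 7 were higher and 5 lower, and 0 passed (median 0.02 log2). Bmpr1a, a type I BMP receptor, read 1090 and 1034 with BMP-2 and 881 and 919 without. Acvr1, another type I receptor, differed by 0.30 log2 and Tgfbr2, the type II receptor of TGF-beta, by -0.45 log2, both with overlap.

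Of 6 tested extracellular modulators 2 were higher and 4 lower, and 0 passed (median -0.04 log2). Chordin (Chrd) read 87.0 and 100.3 with BMP-2 and 102 and 141 without, Htra1, a secreted serine protease, differed by -0.11 log2, and Twsg1, which binds BMPs together with chordin, by -0.05 log2. Of 7 tested genes that process precursors 4 were higher and 3 lower, and 0 passed (median 0.05 log2). Furin, the convertase known to cut BMP precursors, read 272 and 223 with BMP-2 and 208 and 171 without. Pcsk6, a related convertase, differed by 0.10 log2 and Pcsk4, a convertase of germ cells, by -0.19 log2. At an unadjusted limma p under 0.05 the pathway lists held 2 of 11 ligands, Lefty2 and Nodal. They also held 3 of 7 SMAD genes and 10 of 10 early targets, with Smad6 and Smad7 on both lists. Receptors, modulators and processing genes had 0 each, and 3.07% of all tested probe sets were under this level.

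**Figure D4:**
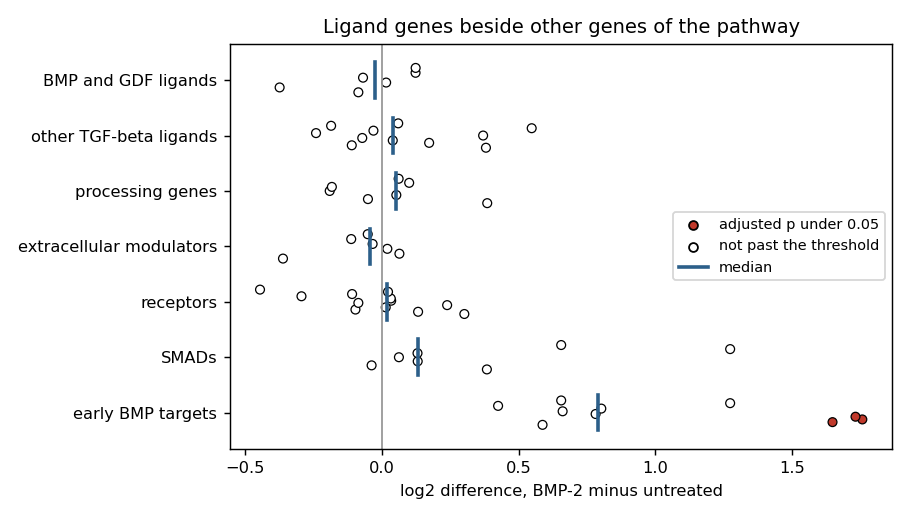
Log2 difference of BMP-2 minus untreated (horizontal) for the 6 tested ligand probe sets and for the tested genes of 6 lists, 1 probe set per gene, with filled points for an adjusted p under 0.05 and blue lines for medians. Smad6 and Smad7 stand in both bottom rows. The ligand row has a median of -0.03 log2, and the early targets have a median of 0.79 log2.

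The label of the cells was set against marker genes. All 10 stem cell markers were tested, none was past the threshold (4 higher, 6 lower), and their brightest probe sets summed to 105088 and 99630 with BMP-2 and 105726 and 99422 without. Zfp42, Utf1 and Nanog had the smallest p-values among them, at -0.11, -0.08 and 0.05 log2. Markers of fibroblast feeder cells summed to 619 and 729 with BMP-2 and 639 and 686 without, and 5 of the 9 with a probe set were below the limit on all arrays (Thy1 -0.16, Col1a2 0.09, Twist1 -0.09 log2). Endoderm markers summed to 828 and 1025 with BMP-2 and 683 and 816 without, and 6 of 6 tested were higher with none past the threshold (Sox7 1.11, Gata4 0.45, Gata6 0.20 log2). The sums of the endoderm markers did not overlap between the groups, while those of the other marker lists did. By gene, the groups did not overlap for 1 of the 6 tested endoderm markers, against 28.8% of the 12976 genes. That gene was Sox7, which read 111 and 135 with BMP-2 and 63.5 and 50.9 without, the last 2 near the limit of 53.0. With the signals of Sox7 left out, the endoderm sums overlap. Trophectoderm markers summed to 2981 and 3263 with BMP-2 and 2960 and 3105 without, 1 of 4 tested being higher (Hand1 -0.23, Tfap2c 0.10, Krt8 -0.09 log2). Mesoderm markers summed to 733 and 856 with BMP-2 and 656 and 776 without, 4 of 5 being higher (Mesp1 0.55, Eomes 0.25, Tbx6 0.53 log2). None of these genes was past the threshold. Tbx6 had a mean of 6.03 log2 with BMP-2 and 5.50 log2 without, where the limit was 5.73 log2. It was thus tested only through the BMP-2 arrays, and its count as higher is partly set by the filter. Fewer cells of a type and less RNA per cell cannot be told apart in such samples, and the part of these markers in the ligand signals was not tested.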

How the data were processed

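RNA of 4 samples was hybridised to Affymetrix arrays as biotin-labelled cRNA, per the labels' protocols. The authors deposited 1 intensity per probe set and array on a linear scale, and the submitters' processing notes name MAS5, which summarises perfect-match and mismatch probes. The mean intensity, trimmed by 2% at each end, was 500.003 on each array. Detection calls were not used here. After 64 control probe sets were left out, log2 signals were used as they stood, and 27022 of 45037 probe sets above the 40th percentile of mean log2 signal (5.73 log2) were tested. limma 3.58.1 in R 4.3.3 was used (lmFit and eBayes with an intensity trend, two-sided, Benjamini-Hochberg adjustment, 2 residual and 7.98 prior degrees of freedom). The fit was also run on simulated data, in which arrays were independent and had no effect of the replicate number. That run cannot show how the fit behaves where arrays share such an effect. Entrez identifiers matched all 17 member probe sets to GRCm38.p6 gene names, and 0 symbols changed. Members and lists were chosen with earlier results of these data known. Genes named beside the members are those past the threshold and the 3 with the smallest p-value in each list. The number of arrays limits the precision.

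As alternatives, the arrays were quantile normalized or centred on their medians, a pseudocount of 25.4 was added, the filter was dropped or raised to the 60th percentile, the intensity trend was dropped, the replicate number entered as a block, each array was left out, and probe sets were averaged by gene. Centring over the tested probe sets was added after seeing the data.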

Additional observations from a re-analysis of the deposited data

How the results depend on the processing

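No ligand probe set passed under any of the 13 alternatives, leaving out an array included (0 to 0). The count over all tested probe sets, 5 in the main setting, was 8 with the filter at the 60th percentile, 116 with median centring, 17 with centring over the tested probe sets (chosen after seeing the data), 0 without the intensity trend (1023 at an unadjusted p under 0.05 by limma) and 11 with the replicate block. It ran from 16 to 141 when an array was left out. The lone array of a group is then assumed to vary like the other group. After median centring, and without either BMP-2 array, the prior degrees of freedom became infinite, so the spread of a single probe set was not used.

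Bmp4 ran from -0.42 to -0.32 log2 and the brighter Gdf3 probe set from -0.13 to -0.04 over all settings, with -0.03 for the average of both Gdf3 probe sets. The second Gdf3 probe set turned to -0.015 with centring over the tested probe sets. When an array was left out it ran from -0.0498 to 0.0816, Gdf9 from -0.60 to 0.46, Bmp7 from -0.24 to 0.49 and Bmp8b from -0.24 to 0.48 log2. Without BMP-2 replicate 2 all 6 tested ligand probe sets were lower.

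Of the other named genes, averaging the probe sets of each gene turned Twsg1 to 0.017, Utf1 to 0.11 and Krt8 to 0.0062 log2. Leaving out an array gave ranges of -0.10 to 0.86 for Bmp10, -0.39 to 0.0080 for Pcsk4, -0.21 to 0.11 for Twsg1, -0.94 to 0.054 for Tgfbr2, -0.16 to 0.0023 for Utf1, -0.053 to 0.23 for Col1a2, -0.36 to 0.17 for Twist1, -0.0715 to 0.46 for Gata6, -0.0013 to 0.20 for Tfap2c and -0.012 to 1.07 for Tbx6. With no change of sign, values moved by over 1.5 times for Lefty2 (0.35 to 0.74), Furin (0.24 to 0.53), Pcsk6 (0.058 to 0.14), Chrd (-0.59 to -0.13), Htra1 (-0.19 to -0.033), Acvr1 (0.087 to 0.52), Zfp42 (-0.18 to -0.032), Nanog (0.0025 to 0.099), Gata4 (0.11 to 0.78) and Hand1 (-0.30 to -0.15). Averaging probe sets by gene gave 0.41 for Smad7, -0.092 for Nodal, 0.20 for Acvr1 and 0.0096 for Tfap2c. It also lowered Id2 from 1.76 to 1.30 log2 (limma adjusted p = 0.0032) and Smad1 from 0.38 to 0.28 log2.

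Deviations of arrays of equal number from their group means correlated at 0.152 over the tested probe sets. With 2 pairs and no label that states a pairing, the numbers were not taken to pair the samples. With the replicate block 0 ligand probe sets passed. Arrays dim for a probe set limit what can be said of Bmp1, Bmp2, Bmp5 and Bmp6.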
